A study of Mus musculus with 16 samples.

Results

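The libraries labelled 26-month outer hair cell (26m OHC) were compared with those labelled 26-month inner hair cell (26m IHC). The libraries were chosen by label alone, 4 in each group and 8 of the 16 in the series, and the comparison ran across every gene with a mean of at least 0.1 RPKM in either group, 16043 of the 20986 genes that were above 0 in any library. RPKM is a gene's reads scaled by exon length and library size, a level per length that puts genes of 1 library on the same scale, while a comparison between libraries also depends on the few most abundant genes. The other 8 libraries of the series carry the same cell type labels at 9 months of age (9m OHC and 9m IHC). All libraries came from cochleae of CBA mice (CBA/J in the study's methods), and both sexes are given as used. Each was made from a pool of about 1000 hair cells, drawn one at a time into a pipette and recognised by their shape. A pool came from 6 to 18 mice. The study's methods give 2 biological replicates with 2 technical repeats each per group, so libraries of a group may share a pool. By those methods a biological replicate took more mice at 26 than at 9 months. No mutation or treatment is given for any group. The pools mix animals, and the labels do not say which sex or which mice went into which library. Marker genes went against the labels. All 16 outer hair cell genes were highest under the 26m IHC label, 14 of them were second highest under the 26m OHC label, and of the 11 inner hair cell genes 9 were highest under one of the 9-month labels. This is the order that would be seen if the names 26m IHC and 9m OHC had been exchanged in the deposited record. Under such an exchange the contrast described here would be 26-month against 9-month outer hair cells, an effect of age and not of cell type, and the contrast of the 9-month labels would be 26-month against 9-month inner hair cells. The groups are called by their labels throughout, and no statement about a label here is a statement about the cell type or age that it names.

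Inner hair cells are the sensory receptors of the cochlea and pass sound signals to spiral ganglion neurons at ribbon synapses, while outer hair cells change length with voltage through the motor protein prestin and amplify the vibration of the sensory epithelium. Outer hair cells receive most of the efferent, cholinergic innervation, and they are the more vulnerable of the pair in age-related hearing loss. Both types carry stereocilia, whose tip links open the transduction channel.

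The 2 groups differed in most genes. With calls made where limma gave an adjusted p (Benjamini-Hochberg over all genes tested) of at most 0.1 and an absolute log2 fold change of at least 1, 4659 genes were higher in the libraries labelled 26m OHC, which is 29% of the genes tested, and 5526 were lower, which is 34.4%. Together 63.5% of genes were called, so a list in which about that share is called does not stand out. The median log2 fold change over all genes was -0.20, the median absolute log2 fold change was 1.38 and the median standard error was 0.0623. In 91.8% of the genes the 4 libraries of one group did not overlap with the 4 of the other. Log2 fold changes of 4 or more were reached by 709 genes in the upward direction and 528 in the downward direction. Of the genes at 100 RPKM or more, 460 under the 26m OHC label and 483 under the 26m IHC label, 214 were common to both, 46.5% and 44.3% of each set.

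The libraries held 19990435 to 21226800 reads in the 26m OHC group and 23161311 to 25617032 in the 26m IHC group, as worked out from the value of a single read in RPKM. One read of a gene of 1 kb was worth 0.0471 to 0.05 RPKM under the 26m OHC label and 0.0390 to 0.0432 RPKM under the 26m IHC label, so values below about 0.1 RPKM rest on very few reads. Libraries 1 and 2 of each group, and 3 and 4, differed by about the sampling noise of their reads (mean chi-square per gene 1.01 to 1.09, against 2.14 to 2.73 for other pairs within a group), so the mean of each pair was used as 1 replicate. Means are given ± SD with n = 2, and the p-values measure only the spread between these averaged replicates, which may be largely technical.

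Prestin, the outer hair cell motor encoded by Slc26a5 (ENSMUSG00000029015, chr5:21810655-21865604 in GRCm38), was low in the libraries labelled 26m OHC. Its level was 1.81, 1.78, 1.74 and 2.06 RPKM there, against 821, 818, 812 and 815 RPKM in the libraries labelled 26m IHC. The groups were far apart, 442-fold lower under the OHC label (log2 fold change -8.71 ± 0.035 SE, limma, adjusted p = 2.38e-07). At 9 months the same gene averaged 0.172 RPKM under the OHC label and 1.07 RPKM under the IHC label, so a high prestin level was seen in 1 of the 4 groups only.

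The remaining markers given for this contrast were also split between the groups. Mmp12, a macrophage elastase, had 86.9, 90.4, 90.2 and 89.0 RPKM under the 26m OHC label, against 0.0109, 0.00539, 0.00597 and 0.0119 RPKM under the 26m IHC label (log2 fold change 9.68 ± 0.043, adjusted p = 2.38e-07). Vsnl1, the neuronal calcium sensor visinin-like 1, had 80.5, 80.1, 79.7 and 83.1 RPKM, against 0.0612, 0.141, 0.067 and 0.0445 RPKM (8.84 ± 0.13, adjusted p = 5.78e-07). Both were thus abundant in every library labelled 26m OHC and close to 0 in every library labelled 26m IHC. In the other direction, Prg2, the eosinophil granule major basic protein, had 0.0571, 0, 0 and 0.119 RPKM under the 26m OHC label, against 327, 333, 317 and 318 RPKM under the 26m IHC label (-11.14 ± 0.11, adjusted p = 3.34e-07). Pdzd7, which scaffolds the ankle links of developing stereocilia, had 0.0117, 0.0115, 0 and 0 RPKM, against 7.76, 7.31, 7.6 and 6.98 RPKM (-6.15 ± 0.084, adjusted p = 5.23e-07). Hbb-bt, a beta globin, was listed at 0 in all 4 libraries labelled 26m OHC, against 383, 390.2, 377 and 377 RPKM under the 26m IHC label. The libraries of the 2 groups did not overlap for any of these 6 genes, which was so for 91.8% of all genes tested. The 6 were given as markers of this contrast.

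**Figure D1:**
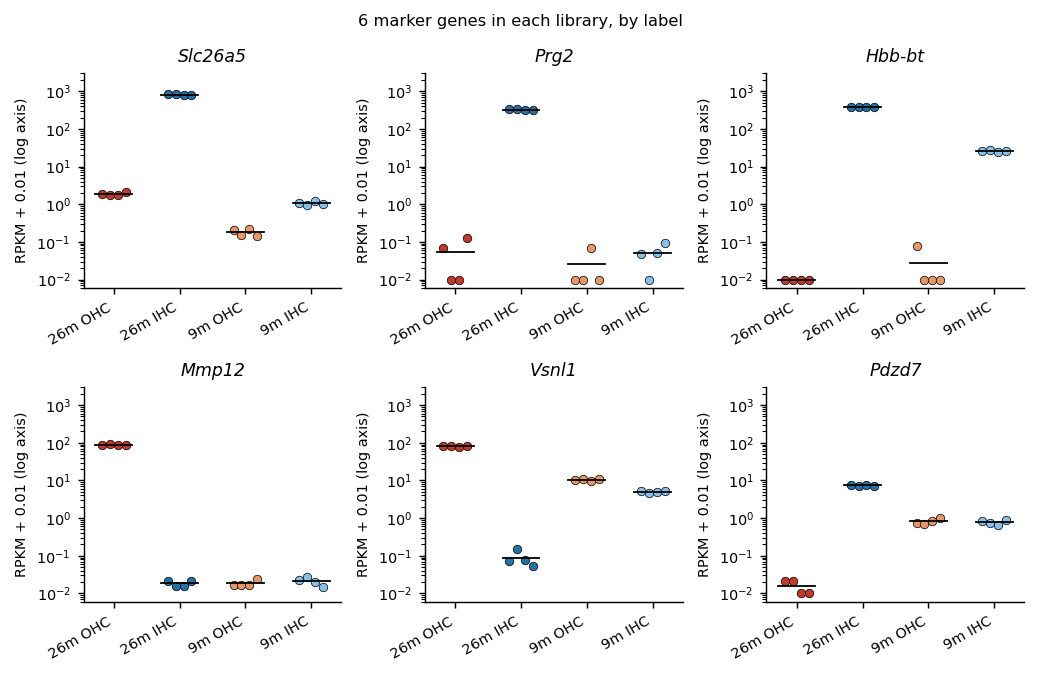
Level of the 6 marker genes in each library (RPKM + 0.01, log axis), one panel per gene and one point per library, with a bar at the group mean, for the groups labelled 26m OHC, 26m IHC, 9m OHC and 9m IHC. Slc26a5 is high only under the 26m IHC label, at 812 to 821 RPKM, while Mmp12 is high only under the 26m OHC label, at 86.9 to 90.4 RPKM.

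The promoters of 4 of the genes at the extremes of the contrast are shown because the genes moved as a group with others of their cell type. Each runs from 250 bases before to 50 bases after the gene's start in RefSeq (GRCm38.p6), 5′ to 3′ on the gene's own strand, at chr9:7347124-7347423 for Mmp12 (plus strand), chr5:21865555-21865854 for Slc26a5 (minus strand), chr11:87875487-87875786 for Epx (minus strand) and chr7:103813874-103814173 for Hbb-bt (minus strand). Epx encodes eosinophil peroxidase. Of the 2 starts listed for Mmp12, the one with more matches is shown. Capitals mark matches, searched on both strands, to TATAAA (a core promoter element), TGANTCA (the AP-1 type site) and AGATAA (the site type of GATA factors).
Mmp12: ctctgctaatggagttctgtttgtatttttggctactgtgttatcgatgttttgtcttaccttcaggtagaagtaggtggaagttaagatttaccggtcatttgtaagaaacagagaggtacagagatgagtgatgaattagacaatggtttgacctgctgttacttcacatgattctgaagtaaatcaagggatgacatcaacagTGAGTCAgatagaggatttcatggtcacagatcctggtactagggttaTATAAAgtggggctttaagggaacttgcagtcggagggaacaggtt
Slc26a5: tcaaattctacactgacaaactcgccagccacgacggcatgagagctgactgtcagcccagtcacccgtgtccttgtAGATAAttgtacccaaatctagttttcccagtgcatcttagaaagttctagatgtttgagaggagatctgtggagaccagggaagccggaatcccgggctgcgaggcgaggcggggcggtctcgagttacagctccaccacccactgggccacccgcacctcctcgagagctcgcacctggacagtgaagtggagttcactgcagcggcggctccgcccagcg
Epx: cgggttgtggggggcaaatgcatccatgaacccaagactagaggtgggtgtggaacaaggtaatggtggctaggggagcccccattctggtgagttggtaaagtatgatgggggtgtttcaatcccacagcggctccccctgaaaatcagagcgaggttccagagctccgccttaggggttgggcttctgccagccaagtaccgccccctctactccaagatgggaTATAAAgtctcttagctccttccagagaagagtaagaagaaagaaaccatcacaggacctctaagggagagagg
Hbb-bt: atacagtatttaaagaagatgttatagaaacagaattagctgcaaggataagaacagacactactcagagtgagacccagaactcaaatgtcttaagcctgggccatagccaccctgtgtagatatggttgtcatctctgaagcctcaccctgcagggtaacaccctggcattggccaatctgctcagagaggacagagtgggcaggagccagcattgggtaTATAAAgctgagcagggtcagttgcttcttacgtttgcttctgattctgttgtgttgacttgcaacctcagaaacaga
A TATAAA match was found in 13.6% of all 32851 promoters of this length, TGANTCA in 7.81% and AGATAA in 11.2%. Among promoters of eosinophil and neutrophil granule genes, 6 of 20 (30%) held TATAAA, 4 (20%) held AGATAA and none held TGANTCA. Among those of macrophage genes 6 of 29 (20.7%) held TATAAA, 5 (17.2%) held TGANTCA and 4 (13.8%) held AGATAA. Among those of neuronal genes 3 of 31 (9.68%) held TATAAA, 5 (16.1%) held AGATAA and none held TGANTCA. For red cell genes, 3 of 13 (23.1%) held TATAAA, 3 (23.1%) held AGATAA and 1 (7.69%) held TGANTCA. For outer hair cell genes, 1 of 10 (10%) held each of the 3 motifs. A match describes the letters only, and that to TATAAA in Mmp12 begins 4 bases after the start, not before it.

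All 16 genes used as markers of outer hair cells were lower in the libraries labelled 26m OHC, with a median log2 fold change of -3.90 against -0.20 over all genes. Oncomodulin (Ocm), the calcium buffer of outer hair cells, had 1153, 1142, 1155 and 1156 RPKM under the 26m OHC label, against 12837, 12800, 12995 and 13039 RPKM under the 26m IHC label (-3.49 ± 0.024, adjusted p = 2.76e-07). The 2 subunits of the efferent nicotinic receptor were lower still in relative terms. Chrna10 averaged 29.3 ± 0.392 RPKM against 869 ± 9.91 RPKM (-4.89 ± 0.023), and Chrna9 averaged 7.44 ± 0.302 RPKM against 360.1 ± 6.83 RPKM (-5.58 ± 0.037). Stereocilin (Strc), which attaches outer hair cell stereocilia to each other and to the tectorial membrane, averaged 6.49 ± 0.10 RPKM against 95.3 ± 2.4 RPKM. Across the 4 groups, each of the 16 genes was at its highest under the 26m IHC label, and 14 of the 16 were second highest under the 26m OHC label. The 16 genes together took 0.158% to 0.161% of reads under the 26m OHC label and 2.36% to 2.37% under the 26m IHC label.

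Inner hair cell genes ran the other way. All 11 that were tested were higher under the 26m OHC label (median log2 fold change 3.01), and all 11 were at their lowest of the 4 groups under the 26m IHC label. Calretinin (Calb2) had 2029, 2028, 2000.3 and 1999 RPKM, against 256, 252, 251 and 249 RPKM (3.0 ± 0.023, adjusted p = 2.91e-07). Otoferlin (Otof), the calcium sensor for release at the ribbon synapse, had 78.1, 78.6, 76.6 and 73.7 RPKM, against 24.0, 23.4, 23.5 and 23.1 RPKM (1.71 ± 0.031, adjusted p = 9.56e-07). Slc17a8, which encodes the vesicular glutamate transporter VGLUT3, averaged 42.2 ± 0.80 RPKM against 2.04 RPKM (4.31 ± 0.033). Slc7a14 averaged 9.21 RPKM against 0.0742 RPKM, and Tbx2, the transcription factor that keeps inner hair cells in their fate, averaged 3.56 RPKM against 0.921 RPKM. Ntf3, a neurotrophin, was at 1.58 to 2.04 RPKM under the 26m OHC label and listed at 0 in every library under the 26m IHC label. The 26m OHC label was nonetheless not where most of these genes peaked, since 2 of the 11, Rprm and Shtn1, were highest there, 3 under the 9m OHC label and 6 under the 9m IHC label. Otof averaged 138 RPKM under the 9m OHC label and 349.6 RPKM under the 9m IHC label, above both 26-month groups.

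**Figure D2:**
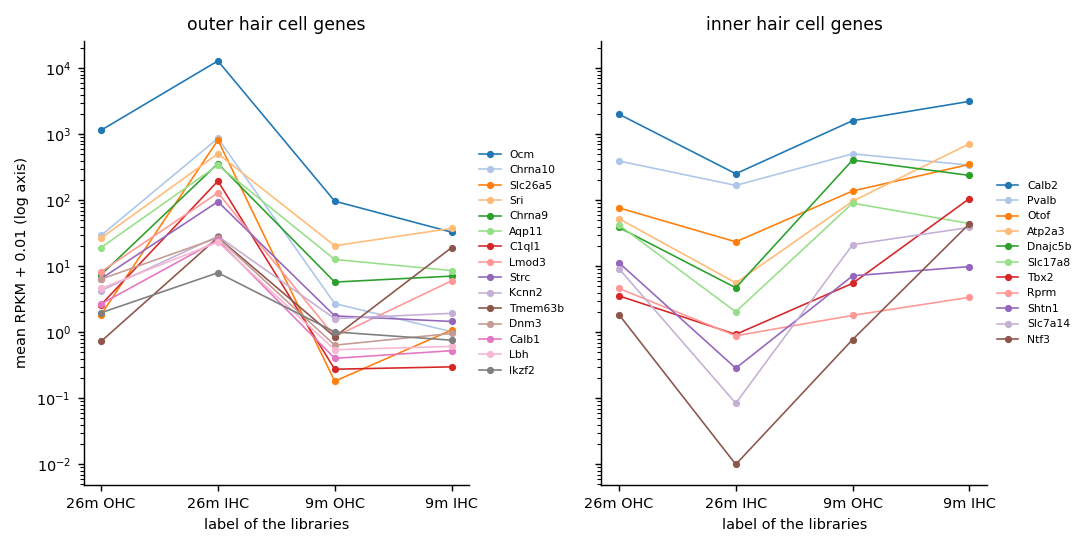
Mean level of hair cell marker genes (RPKM + 0.01, log axis) in the groups labelled 26m OHC, 26m IHC, 9m OHC and 9m IHC, with 1 line per gene and 1 panel per gene list. Of the outer hair cell list 15 genes are drawn, all of which peak under the 26m IHC label, and the inner hair cell genes are lowest there in 11 of 11.

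Genes that both hair cell types use were lower as well under the 26m OHC label, 18 of 19 with a median log2 fold change of -2.03, and 15 of the 19 were at their lowest of the 4 groups there. Pou4f3, a transcription factor that hair cells need to survive, averaged 67.6 ± 2.2 RPKM under the 26m OHC label and 204 ± 0.20 RPKM under the 26m IHC label (-1.60 ± 0.030, adjusted p = 1.02e-06). Gfi1, which acts downstream of it, averaged 22 ± 0.49 RPKM against 109 ± 1.4 RPKM. Myosin VIIa (Myo7a) averaged 9.87 RPKM against 39.0 RPKM, and Pcp4, a calmodulin-binding peptide, averaged 1227 ± 6.4 RPKM against 8346 ± 80.2 RPKM. The transcripts of these 19 genes made up 0.349% to 0.354% of reads under the 26m OHC label and 2.13% to 2.14% under the 26m IHC label. In bulk libraries, fewer hair cells and less hair cell RNA per cell cannot be told apart.

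Genes of the transduction apparatus followed the same direction, with 1 higher and 10 lower of 12 tested (median -2.0). Tmc1, the pore subunit, had 25.6, 26.6, 25.4 and 27.4 RPKM under the 26m OHC label, against 241, 249, 248 and 251 RPKM under the 26m IHC label (-3.23 ± 0.023, adjusted p = 2.83e-07). Its partners Lhfpl5 and Cib2 averaged 139 ± 3.2 and 123 ± 0.13 RPKM, against 1428 ± 32.5 and 1709 ± 5.7 RPKM. The tip link was not uniform. Cdh23, its upper part, averaged 1.87 RPKM against 7.98 RPKM (-2.03 ± 0.047), whereas Pcdh15, its lower part, averaged 1.42 RPKM against 1.41 RPKM (log2 fold change 0.01 ± 0.058, adjusted p = 0.882). Myo1c, an unconventional myosin, was the member that was higher (1.17 against 0.382 RPKM).

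Structural genes of the hair bundle were mostly lower. In the actin core and rootlet list, 3 members were higher (Actb, Cfl1 and Pls3) and 26 lower of 34 (median -2.03). Triobp, which bundles actin in the rootlet, averaged 5.58 ± 0.083 RPKM against 86.3 ± 2.8 RPKM (-3.93 ± 0.034), and kinocilin (Kncn) averaged 57.7 ± 0.61 RPKM against 747 ± 12 RPKM. The list's most abundant member moved in the opposite direction. Beta-actin (Actb) had 2445, 2430.3, 2350.4 and 2366 RPKM under the 26m OHC label, against 15.3, 15.5, 15.7 and 14.7 RPKM under the 26m IHC label (7.28 ± 0.026, adjusted p = 2.38e-07), and it averaged 1369 RPKM under the 9m OHC label and 31.5 RPKM under the 9m IHC label. Gamma-actin (Actg1), the other cytoplasmic actin, differed much less, at 500.5 against 314 RPKM. Of the Usher scaffold and ankle link genes 1 was higher (Whrn) and 9 were lower of 12 (median -1.96). Among genes of the tectorial membrane and stereocilin, 3 were higher (Tecta, Col9a1 and Col11a1) and 8 lower of 13. Ceacam16, a tectorial membrane glycoprotein, averaged 250.1 ± 8.43 RPKM against 8269.7 ± 275 RPKM (-5.05 ± 0.038), and Tectb, beta-tectorin, averaged 0.108 RPKM against 76.7 RPKM. Tecta, alpha-tectorin, was at 0.613 to 0.706 RPKM under the 26m OHC label and listed at 0 under the 26m IHC label.

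Efferent synapse genes were lower on balance (5 higher and 10 lower of 19, median -2.05), with C1ql1, a synapse-organising protein, at 2.61 ± 0.20 RPKM against 196 ± 5.7 RPKM. Afferent synapse genes were mixed (23 higher and 10 lower of 51, median 0.38). Cabp2, a calcium-binding protein that modulates the hair cell calcium channel, was at 464 ± 13.1 RPKM against 548 ± 15.0 RPKM, a difference below the fold threshold (-0.24 ± 0.033), while Cacna1d, the pore of that channel, was lower (8.83 against 27.4 RPKM, -1.62 ± 0.032). Syt2, a synaptotagmin that neurons use, averaged 15.9 RPKM against 0.0761 RPKM (6.51 ± 0.082). Potassium channel genes split into 11 higher and 15 lower of 33. The inward rectifier Kcnj13 averaged 5.90 RPKM against 449.9 RPKM (-6.23 ± 0.023), and the neuronal channel Kcna1 averaged 12.6 RPKM against 0.0757 RPKM (6.18 ± 0.077). The sign of that list's median depended on the scaling, at -0.08 as deposited and 0.09 after median ratio scaling.

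Markers of some other cell types also differed widely between the groups. Neuronal genes of spiral ganglion type were higher under the 26m OHC label in 30 of 33 members and lower in none (median 4.71), and 28 of the 33 were at their highest of the 4 groups there. Cplx1, complexin 1, which clamps synaptic vesicle fusion, had 209, 206, 205 and 204 RPKM, against 0.504, 0.499, 0.533 and 0.334 RPKM (8.51 ± 0.065, adjusted p = 2.91e-07). Tubb3, the neuronal beta-tubulin, averaged 139 ± 5.1 RPKM against 0.528 ± 0.14 RPKM (7.81 ± 0.16, adjusted p = 1.29e-06). Snap25, a neuronal protein of vesicle fusion, averaged 280.0 ± 2.4 RPKM against 15.1 ± 0.086 RPKM. The sensory neuron transcription factor Pou4f1 averaged 18.2 RPKM against 0.0042 RPKM. The list as a whole took 0.822% to 0.838% of reads under the 26m OHC label and 0.0537% to 0.0545% under the 26m IHC label.

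Macrophage genes showed the same direction, with 29 higher and 1, Cx3cr1, lower of 34 (median 3.84) and 30 of the 34 at their highest of the 4 groups under the 26m OHC label. Lyz2, a lysozyme, had 613, 600.3, 594 and 605 RPKM, against 39.6, 39.5, 42.8 and 41.0 RPKM (3.89 ± 0.034, adjusted p = 3.09e-07). Ctss, the lysosomal protease cathepsin S, averaged 145 ± 2.1 RPKM against 1.13 ± 0.15 RPKM (6.88 ± 0.087), and osteopontin (Spp1) averaged 973 ± 19 RPKM against 31.9 ± 0.50 RPKM (4.93 ± 0.026). Atp6v0d2, a subunit of the proton pump of osteoclasts and macrophages, was at 8.92 to 9.55 RPKM and listed at 0 in the libraries labelled 26m IHC. Reads of the list made up 0.416% to 0.419% of all reads against 0.0171% to 0.0173%. Their part in the differences elsewhere in the contrast was not tested.

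Granule genes of eosinophils and neutrophils and genes of red cells stood on the other side. Of the 23 granule genes tested, 1 was higher (Lyz1) and 22 were lower under the 26m OHC label (median -4.78). Of the list's members, 20 were at 0 in all 4 libraries labelled 26m OHC. Those of them that passed the filter did so only through the 26m IHC group, so they could only be lower. Across the 4 groups, 21 of the 23 were highest under the 26m IHC label, an order that the filter also favoured. Epx was listed at 0 in all 4 libraries labelled 26m OHC and had 33.0, 31.7, 30.9 and 31.0 RPKM under the 26m IHC label. Ear1, an eosinophil ribonuclease, was likewise at 0 against 24.7, 24.4, 23.7 and 26.3 RPKM. Both were at 0 in every 9-month group mean. S100a8, a neutrophil calprotectin subunit, averaged 0.138 ± 0.14 RPKM against 15.7 ± 2.4 RPKM (-6.19 ± 0.45, adjusted p = 1.00e-04). Of the 16 red cell genes, 1 was higher (Tfrc, the transferrin receptor, which other cells use too) and 14 were lower (median -2.72). In this list 11 members were at 0 under the 26m OHC label, and the same limit holds for those tested. Hba-a2, an alpha globin, had 5.53, 5.23, 4.95 and 4.72 RPKM, against 2736.5, 2739, 2649.9 and 2678 RPKM (-9.02 ± 0.055). Alas2, the first enzyme of haem synthesis in red cell precursors, was listed at 0 against 17.8 to 19.2 RPKM. Red cell genes took 0.0771% to 0.0786% of reads under the 26m OHC label and 0.625% to 0.645% under the 26m IHC label, and granule genes took 1.70e-04% to 2.07e-04% and 0.0478% to 0.0495% of reads.

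Other cochlear cell types gave mixed lists. Of the supporting cell genes 13 were higher and 8 lower of 33 (median 0.76). Sparcl1, among the higher ones, was at 366 RPKM under the 26m OHC label against 4.44 RPKM under the 26m IHC label. The summed level of the supporting cell list went the other way. It was 8295.5 to 8417.3 RPKM under the 26m OHC label and 13635 to 14007 RPKM under the 26m IHC label. Fibrocyte and mesenchyme genes were higher in 13 and lower in 10 of 29. Their most abundant member, Sparc, a matrix glycoprotein, averaged 76.4 ± 2.1 RPKM against 2167 ± 78.3 RPKM, whereas Apod, apolipoprotein D, averaged 438 ± 13 RPKM against 65.5 ± 2.2 RPKM. Genes of the stria vascularis were higher in 9 and lower in 4 of 16, vessel genes higher in 8 and lower in 2 of 11, and myelin and Schwann cell genes higher in 8 and lower in 5 of 16. The compact myelin gene Mbp stayed low in both groups, at 0.0995 against 1.34 RPKM. Lymphocyte genes were rare, with 6 of 20 listed passing the filter, 5 of them lower (Cd79a, Cd79b, Ighm, Igkc and Nkg7) and Il7r higher, and the most abundant, Nkg7, was at 0 against 3.45 RPKM.

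**Figure D3:**
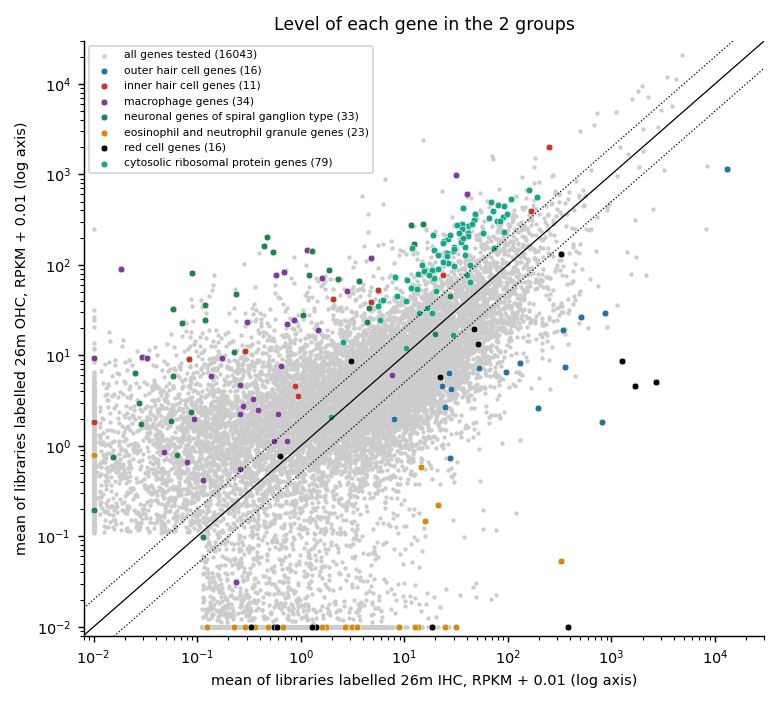
Mean level of each of the 16043 genes tested (RPKM + 0.01, log axes) under the 26m OHC label (vertical) and the 26m IHC label (horizontal), grey for all genes and coloured for gene lists, with the diagonal as a solid line and a 2-fold difference as dotted lines. The 16 outer hair cell genes lie below the diagonal, and the 11 inner hair cell genes lie above it.

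Some gene groups that are not tied to a cell type had most members in 1 direction. All 13 protein genes of the mitochondrial genome were higher under the 26m OHC label (median 2.16), and they took 7.48% to 7.73% of reads against 1.94% to 2.05%. mt-Nd6, a subunit of complex I, had 1181, 1188, 1209 and 1189.5 RPKM, against 174, 177, 182 and 179 RPKM (2.74 ± 0.025, adjusted p = 3.12e-07). Of the 76 nuclear genes of the same respiratory chain, 21 were higher, a share no larger than the 29% over all genes, 6 were lower and 49 were not called (median 0.72). Cox8a, a subunit of cytochrome c oxidase, was lower (433 ± 10 against 898 ± 11 RPKM). Ribosomal protein genes were higher in 73 of 79 and lower in none (median 2.34), with Rps27 at 420.2 ± 3.8 RPKM against 37.0 ± 0.067 RPKM. They took 2.33% to 2.38% of reads against 0.475% to 0.482%. Rescaling the libraries without the mitochondrially encoded genes gave 74 of 79 higher for the cytosolic ribosomal protein genes and 35 higher and 2 lower for the nuclear respiratory chain genes, and quantile normalization left 11 of the 13 genes encoded by the mitochondrial genome higher.

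Genes of the endoplasmic reticulum stress response and its chaperones were mostly lower, 2 higher and 16 lower of 25 (median -1.47). The higher ones were 2 transcription factors of the stress response, Atf4 (32.6 against 16.1 RPKM) and Ddit3 (37.7 against 15.4 RPKM). Hspa5, the chaperone BiP, had 90.5, 88.7, 91.6 and 89.5 RPKM under the 26m OHC label, against 520.3, 521, 521 and 520.4 RPKM under the 26m IHC label (-2.53 ± 0.020, adjusted p = 2.91e-07). Pdia3, a disulfide isomerase, averaged 36.6 RPKM against 424 RPKM (-3.53 ± 0.021). Autophagy genes were lower in 17 and higher in 5 of 41 (median -0.81), with Rragb, a small GTPase of the mTORC1 pathway, at 0.0108 RPKM against 12.8 RPKM. Gabarap, an autophagosome protein, was among the higher ones (189 against 79.5 RPKM). DNA repair genes were higher in 9 and lower in 16 of 39, and H2afx, the histone variant that marks double-strand breaks, averaged 0.422 RPKM against 18.5 RPKM (-5.15 ± 0.049). The median of the DNA repair list was -0.24 as deposited and 0.01 after median ratio scaling.

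Interferon response genes were higher in 29 and lower in 3 of 37 (Ifit1, Ifi44 and Rsad2), with a median of 2.40. Across the 4 groups, 27 of the 37 were at their highest under the 26m OHC label. Ifi27l2a had 575, 572, 582 and 568 RPKM, against 3.58, 4.89, 3.54 and 3.53 RPKM (7.18 ± 0.086, adjusted p = 4.41e-07), and Psmb8, a subunit of the immunoproteasome, averaged 9.13 RPKM against 0.144 RPKM (5.26 ± 0.17). Some of these genes are also expressed by macrophages, whose markers moved in the same direction. Antioxidant and metallothionein genes were higher in 17 and lower in 6 of 35 (median 0.82). Sod1, the cytosolic superoxide dismutase, had 1486, 1475, 1446 and 1454 RPKM, against 73.6, 77.3, 67.2 and 71.8 RPKM (4.34 ± 0.045, adjusted p = 3.63e-07). Gpx2, a glutathione peroxidase, was at 1209 against 1856 RPKM, below the fold threshold. Glycolysis genes were higher in 12 and lower in 2 of 24 (Slc2a1 and Pdk2), with a median of 1.08, and Ldhb, a lactate dehydrogenase subunit, stood at 991 ± 22 RPKM against 276 ± 5.8 RPKM. Apoptosis genes were higher in 10 and lower in 6 of 26, and Bcl2, which opposes apoptosis, averaged 11.4 RPKM against 1.02 RPKM (3.36 ± 0.072). In the sirtuin and insulin pathway list, 12 were higher and 6 lower of 27, with the deacetylase Sirt6 at 13.7 ± 0.43 RPKM against 0.778 ± 0.11 RPKM.

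**Figure D4:**
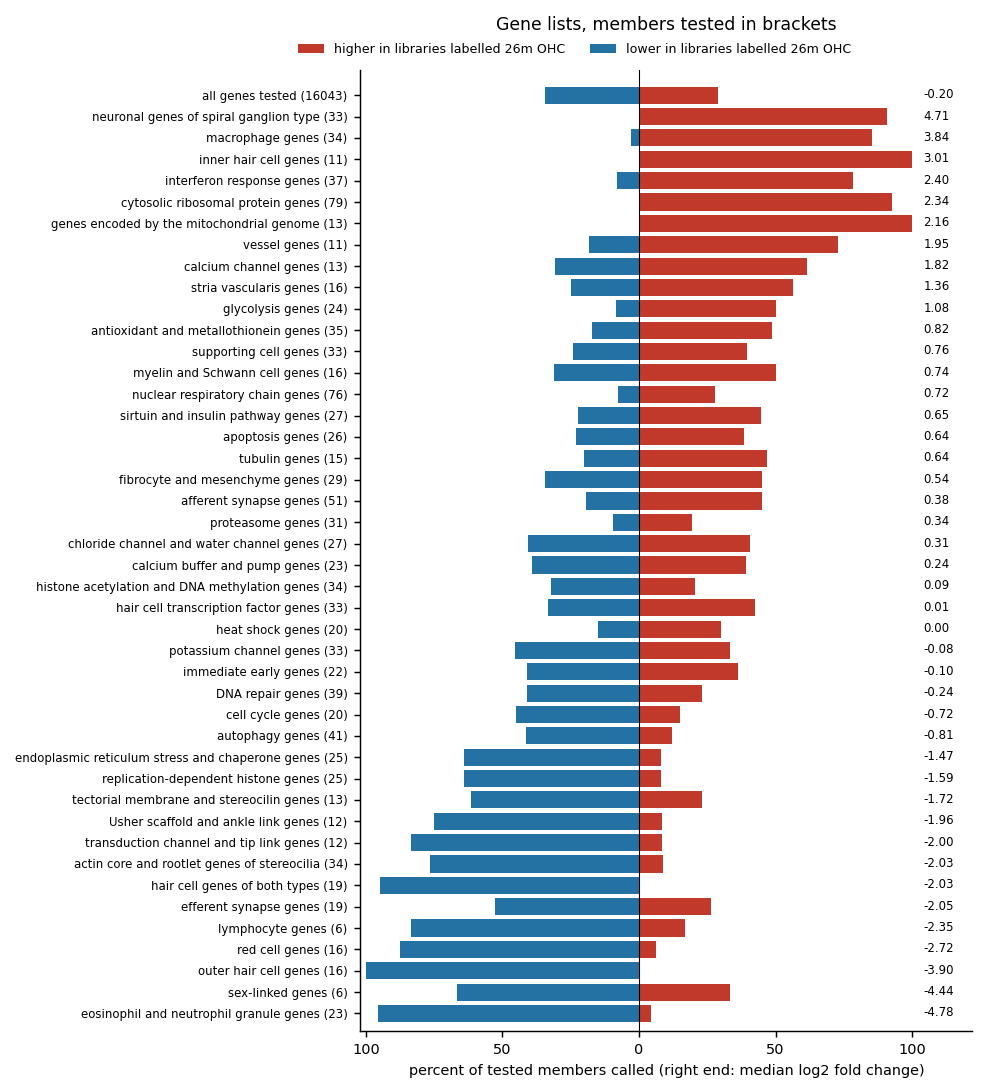
Percent of tested members of each gene list that were higher (bars to the right) or lower (bars to the left) under the 26m OHC label than under the 26m IHC label, with the median log2 fold change at the right end and all 16043 genes on a row of their own. Macrophage, neuronal and interferon response genes and the mitochondrial and ribosomal genes extend to the right, and outer hair cell, granule and red cell genes to the left.

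Genes of the Y chromosome separated the groups as well. Eif2s3y was listed at 0 in all 4 libraries labelled 26m OHC and had 18.9, 18.6, 19.8 and 20.2 RPKM under the 26m IHC label, and Ddx3y averaged 0.00788 RPKM against 16.3 RPKM (-7.25 ± 0.066). Of the 5 genes assigned to this chromosome that were tested, 4 were lower, and Erdr1 was higher (20.1 against 4.46 RPKM). Tsix, the antisense partner of Xist on the X chromosome, had 9.83, 9.58, 10.01 and 9.78 RPKM, against 0.0649, 0.122, 0.0995 and 0.085 RPKM (5.68 ± 0.057), although the counting is not stated to use strand, and reads of Tsix and Xist may not be told apart. At 9 months Eif2s3y averaged 0.0089 RPKM under the OHC label and 3.32 RPKM under the IHC label. The make-up of the pools by sex is not given, so sex and label cannot be told apart, in these genes or across the contrast.

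The same cell type labels at 9 months, in libraries this contrast does not use, gave another picture. There, 2650 of 15335 genes (17.3%) were higher under the OHC label and 7435 (48.5%) were lower, 65.8% in all, with a median log2 fold change of -0.93. Of the 14322 genes tested at both ages, 1516 (10.6%) were higher at both and 3467 (24.2%) were lower at both. Among the 3852 of them that were higher at 26 months, 39.4% were also higher and 27.6% were lower at 9 months, against 16.1% and 48.2% of all genes tested at both ages. Among the 4808 that were lower at 26 months, 72.1% were lower and 5.39% were higher at 9 months. The difference between the 2 contrasts (the interaction of age and cell type label, 17056 genes) passed the test in 56.5% of genes, 38.4% with a more positive value at 26 months and 18.1% with a more negative one.

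The hair cell lists had other counts at 9 months. Outer hair cell genes were lower in 16 of 16 at 26 months but in 4 of 16 at 9 months, where 2 were higher (median -0.28), and inner hair cell genes were higher in 11 of 11 at 26 months but in 1 of 11 at 9 months, where 4 were lower (median -0.88). The interaction was -6.61 for Slc26a5 and 3.04 for Otof. Macrophage genes were higher in 5 and lower in 9 of the 15 tested at 9 months, and neuronal genes were higher in 6 and lower in 11 of 31, against 29 of 34 and 30 of 33 higher at 26 months. Interferon response genes were higher in 7 and lower in 15 of 35 at 9 months. Over all genes tested at 9 months, 17.3% were higher and 48.5% lower, with a median of -0.93. The shares of inner hair cell, neuronal and interferon response genes that were lower there did not exceed that over all genes. Medians at 9 months were -1.40 for macrophage, -0.48 for neuronal and -0.66 for interferon response genes. Lypd1, a modulator of nicotinic receptors, reversed its direction, with 35.6 against 0.109 RPKM at 26 months and 0.00359 against 4.37 RPKM at 9 months, in each case the OHC label and then the IHC label (interaction 12.85).

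Other lists had similar counts under the OHC label at both ages. The 13 mitochondrially encoded genes were higher in 13 of 13 at 9 months too (median 3.05), and the ribosomal protein genes in 76 of 79 (median 2.64). Actb, Sod1 and Cbx3 repeated their direction. Cbx3, a heterochromatin protein, averaged 474 ± 13.8 RPKM against 6.21 ± 0.12 RPKM at 26 months (6.23 ± 0.032) and 543 RPKM against 5.03 RPKM at 9 months. Endoplasmic reticulum stress genes were higher in 2 and lower in 16 at each age, of 25 tested at 26 months and 26 at 9 months. Over all 17056 genes, Pearson's r between group means of log2(RPKM + 0.1) was 0.821 for 26m OHC with 9m OHC and 0.902 for 26m IHC with 9m IHC. It was 0.731 for 26m OHC with 26m IHC and 0.810 for 9m OHC with 9m IHC. The remaining pairs gave 0.7702 (26m OHC with 9m IHC) and 0.7635 (26m IHC with 9m OHC). These values describe the libraries across genes, which are not independent. By their labels the groups of this contrast share an age and differ in cell type, whereas by the order of the hair cell markers both 26-month labels stood above both 9-month labels for 14 of the 16 outer hair cell genes, as would be seen if the contrast lay within outer hair cells. The part of the make-up of the pools in it was not tested.

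**Figure D5:**
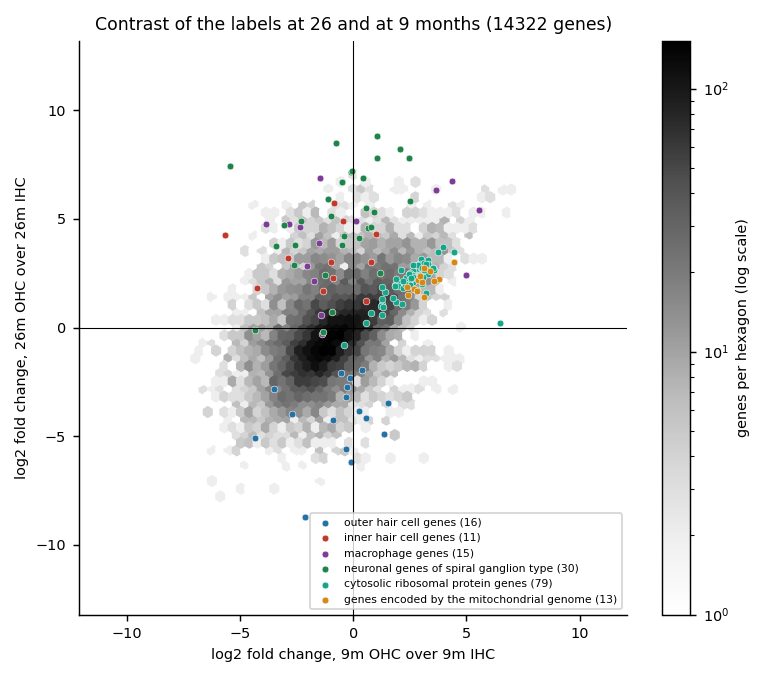
Log2 fold change of OHC over IHC label at 9 months (horizontal) and at 26 months (vertical) for the 14322 genes tested at both ages, with gene density in grey (log scale) and list members in colour. Most ribosomal protein genes lie in the upper right, and outer hair cell genes lie below the horizontal zero line.

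Genes seen in one group alone were counted from exact zeros. There were 196 genes (130 protein-coding) at 1 RPKM or more under the 26m OHC label and at 0 in all 4 libraries labelled 26m IHC, and 309 genes (218 protein-coding) with the opposite pattern. Stac2, an adaptor of voltage-gated calcium channels, had 33.0, 31.5, 30.4 and 30.8 RPKM against 0 in every library labelled 26m IHC. Barhl1, a transcription factor that hair cells need in the long term, was the converse, at 0 in every library labelled 26m OHC against 6.01, 5.87, 5.59 and 5.85 RPKM. Among genes of high level that did not differ by the criteria used, Mrfap1 was at 277, 280.03, 283 and 278 RPKM against 277, 275, 278 and 277 RPKM (0.02 ± 0.020, adjusted p = 0.497), and Cox6a1 averaged 573 ± 24 RPKM against 549.7 ± 20 RPKM (0.06 ± 0.043, adjusted p = 0.227).

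Part of the contrast lies in genes that share exon sequence with others, between which a read inside that sequence cannot be placed. In windows of 75 bases, 889 genes shared over 50% of their windows with another gene, and 38.7% of them were higher and 33.0% lower under the 26m OHC label, against 28.8% and 35.4% of the 9817 genes with no shared window. Of 100 processed pseudogenes, 58 were higher and 15 lower. Of the genes higher at both ages, 12.2% shared 50% or more of their windows, against 5.63% of all genes tested. One shared window each of Hbb-bt and Cbx3 is shown. The Hbb-bt window (GRCm38, chr7:103813581-103813655, minus strand) is also found in the neighbouring globin gene Hbb-bs, as are 14 of the 26 windows of Hbb-bt, and the Cbx3 window (GRCm38, chr6:51475243-51475317, plus strand) is found in 7 other genes, among them the pseudogene Cbx3-ps1. Sharing is limited to part of Cbx3, at 19 of the 73 windows of its longest coding transcript and 2.61% of the 115 windows of its longest transcript of any kind.
Hbb-bt: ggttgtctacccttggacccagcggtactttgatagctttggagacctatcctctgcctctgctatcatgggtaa
Cbx3: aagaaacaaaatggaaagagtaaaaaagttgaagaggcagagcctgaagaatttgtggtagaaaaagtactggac
The RPKM of Hbb-bt and Hbb-bs, of Hba-a2 and of the Cbx3 family can therefore depend on how such reads were assigned. The same limit holds for ribosomal protein genes, of which 20 of 79 shared over 50% of their windows. It also holds for the mitochondrially encoded genes, with 6 of 13. With members that had any shared window left out, the hair cell lists kept their direction. Of outer hair cell genes 0 were higher and 11 lower of 11, and of inner hair cell genes 8 and 0 of 8. Macrophage genes (26 higher and 0 lower of 29) and neuronal genes (18 and 0 of 21) did so too. Granule genes stood at 0 and 18 of 18. Most listed granule genes were at 0 under the 26m OHC label, so the filter fixed the direction of those tested among them. Of the ribosomal protein genes 3 were left, and all 3 were higher. Of the mitochondrially encoded genes 4 were left, and all 4 were higher.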

How the data were processed

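The authors' methods describe 2 biological replicates with 2 technical repeats each per group. Per the labels and methods, reads were mapped to GRCm38 (mm10), and the authors deposited 1 table of RPKM for 49585 genes in 16 libraries. RPKM are scaled to the library's own reads, so a few abundant genes can lower all others. Libraries 1 and 2, and 3 and 4, of a group were averaged (n = 2). Values were tested as log2(RPKM + 0.1) with limma 3.58.1 (trend) in R 4.3.3, with Benjamini-Hochberg adjustment over all genes with a group mean of at least 0.1 RPKM, after a test on simulated data. Fold changes on this scale understate changes of low genes, and a fitted value of a gene listed at 0 is no bound. A gene at 0 in 1 group passed the filter only through the other group, which fixed its direction. Genes were named by rank of fold change, level and interaction, and by level and fold change within 43 lists, and members given in brackets after a count were named after their values were seen. Groups were taken from the labels alone, although the hair cell markers went against them. The comparison, markers and lists were chosen with earlier results of these data known. Shared windows used GENCODE M21 transcripts (75 bases, every 25), and depth came from whole reads (within 0.001) found in every library for 74.8% of detected genes. Pseudocount, filter, scaling, threshold, replicate block and left-out libraries were varied. Aligner settings are not given in the sources used here. One gene of the outer hair cell list is counted with it but not reported here by name.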

Additional observations from a re-analysis of the deposited data

Results flagged for a closer look

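The results below are listed because the difference between the libraries labelled OHC and IHC was not the same at 26 and at 9 months, by limma's test of the interaction (adjusted p of at most 0.1 and an absolute value of at least 1). Ages and cell types are as labelled, and the hair cell markers go against them. All values are log2, positive where the difference was more positive at 26 months. In all, 6553 genes had a positive and 3089 a negative interaction. Among the 6 markers the values were 9.72 for Mmp12, 7.80 for Vsnl1, -4.08 for Hbb-bt, -6.21 for Pdzd7, -6.61 for Slc26a5 and -10.86 for Prg2.

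The largest positive values among protein-coding genes were 12.85 for Lypd1, 11.47 for Pcbd1, 11.25 for Lrrn1, 10.98 for Prkar1b, 10.55 for Omg, 10.53 for Stac2, 10.24 for Lgi3, 10.22 for Rarres1, 10.15 for P4ha3 and 10.06 for Gpm6a. Each of these 10 was higher under the OHC label at 26 months and lower under it at 9 months. The largest negative values, beside that of Prg2, were -11.27 for S100a8, -9.37 for Agr3, -9.04 for Cel, -8.31 for Epx, -7.96 for Ear1, -7.74 for 1700015E13Rik, -7.66 for Dynlrb2, -7.63 for Bmp3 and -7.63 for Wfdc1. Epx, Ear1, Prg2 and S100a8 belong to the granule gene list, of which 2 members passed the filter on low values at 9 months. S100a8 was at 3.70 RPKM under the 9m OHC label and 0.0115 RPKM under the 9m IHC label. The part of granule and macrophage RNA in these interactions was not tested.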

How the results depend on the processing

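Ages and cell types are as labelled, and the markers go against them. Among the 261 genes named by the rules above, no called gene changed direction under any alternative. No uncalled one gained a call in the opposite direction, and the sign of genes that stayed uncalled was not compared. Most called genes were named for large fold changes or high levels. Adding 1 RPKM in place of 0.1 before the logarithm gave 3041 genes higher and 3369 lower under the 26m OHC label than under the 26m IHC label, 1606 and 4696 at 9 months, and 4183 and 1578 in the interaction. Requiring a log2 fold change of 2 gave 2750 and 2539 at 26 months, 1248 and 3617 at 9 months, and 3670 and 1392 in the interaction. The 9-month contrast depended on scaling: 4066 genes were higher after median ratio scaling, and 4249 were higher and 4591 lower after quantile normalization, where 4804 were lower in the interaction; a filter at 1 RPKM left 2036 lower there. The median over all genes at 26 months was 0.07 after median ratio scaling and -0.08 after quantile normalization, against -0.20 as deposited. Leaving out 1 averaged replicate gave 4625 to 4674 genes higher and 5418 to 5546 lower at 26 months, 2605 to 2676 and 7374 to 7427 at 9 months, and 6519 to 6558 and 3066 to 3126 in the interaction, and leaving out 1 library gave 4649 to 4687 and 5479 to 5546 at 26 months, 2644 to 2670 and 7395 to 7444 at 9 months, and 6527 to 6572 and 3066 to 3101 in the interaction. With a replicate block, 4665 genes were higher and 5532 lower at 26 months, and no named gene lost its call. Same-numbered averaged replicates deviated together (r = 0.25 across genes at 26 months), but with 2 pairs the number is not taken to pair samples. Genes near 0.1 RPKM rest on very few reads.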

Other observations

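Gene groups that the report leaves aside are given here for the libraries labelled 26m OHC against those labelled 26m IHC. Over all genes tested, 29% were higher and 34.4% lower, so counts near or below those shares do not stand out. Replication-dependent histone genes were higher in 2 (Hist1h2be and Hist1h2bk) and lower in 16 of 25 (median log2 fold change -1.59). In all 4 libraries labelled 26m OHC, 18 listed members were at 0, and those tested could only be lower. Hist2h2aa1 averaged 47.0 RPKM against 233 RPKM, although all of its windows are shared with another gene. Cell cycle genes were higher in 3 and lower in 9 of 20 (median -0.72). Cdkn1b, the inhibitor p27 that keeps cochlear cells out of the cell cycle, was one of the higher ones, at 31.9, 30.7, 30.3 and 31.1 RPKM against 0.615, 0.858, 0.683 and 0.633 RPKM (5.29 ± 0.06 SE, limma, adjusted p = 4.07e-07). Calcium channel genes were higher in 8 and lower in 4 of 13, with the neuronal auxiliary subunit Cacna2d3 at 9.82 against 0.146 RPKM.

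Heat shock genes were higher in 6 and lower in 3 of 20 with a median near 0. Hspa8 averaged 408 ± 4.9 RPKM against 903 ± 6.4 RPKM, and Cryab, the small heat shock protein alpha-B crystallin, averaged 241 ± 4.2 RPKM against 16.1 ± 0.30 RPKM. Of the proteasome genes 9 of 31 were called, against 63.5% of all genes. Malat1, a nuclear long noncoding RNA, took the largest share of reads in the libraries labelled 26m OHC (4.69% to 4.89%), where the 10 most abundant genes took 14.2% to 14.6%, while in those labelled 26m IHC the first gene was Ceacam16 (1.32% to 1.39%) and the first 10 took 8.50% to 8.54%.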
